A study of Rattus norvegicus with 24 samples.

Results

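Inhibitory interneurons of the hippocampal CA1 field were followed through 10 marker genes, chosen by name with earlier results of these data known. The genes were Gad1, Gad2, Slc32a1, Sst, Npy, Vip, Cck, Pvalb, Calb1 and Reln. They are 10 of the 9075 genes that could be tested, and 12 probe sets carried one of their symbols alone. All 12 probe sets were above the signal limit, a log2 signal of 4, in each of the 23 arrays, so none was dim. Total RNA from microdissected CA1 of male Long-Evans rats was hybridised to Affymetrix rat whole-genome expression arrays, 1 array per biological replicate. The 9 young rats were 6 months old and the aged rats 24 to 26 months old. The aged rats were divided by a learning index from the Morris water maze into 6 unimpaired rats, which scored within the young range, and 8 impaired rats, which scored worse. No rat was treated, and no genetic change is named. The aged groups were therefore made by selection on behaviour, not by an intervention. One further unimpaired array was blank in the deposited table and was not analysed.

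Interneurons release GABA, the main inhibitory transmitter of the forebrain, onto pyramidal cells and onto each other. Gad1 and Gad2 encode the enzymes that make GABA from glutamate, and Slc32a1 encodes the transporter that loads it into synaptic vesicles, so that these genes mark interneurons in general. The peptides somatostatin (Sst), neuropeptide Y (Npy), vasoactive intestinal peptide (Vip) and cholecystokinin (Cck) and the calcium-binding proteins parvalbumin (Pvalb) and calbindin (Calb1) divide interneurons into classes that contact different parts of the pyramidal cell. Reln encodes reelin, a secreted protein that adult interneurons make. Some markers are shared with other cells: Calb1 and Cck transcripts are also found in pyramidal cells, Calb1 is abundant in dentate granule cells, and Reln is made by Cajal-Retzius cells.

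Sst and Reln were the pair of markers whose levels followed each other most closely among animals, as described below, so the start of each gene is shown. Both sequences are from RefSeq on build GRCr8 and run from 122 bases before to 30 bases after the start of the annotated gene, on the plus strand. The Sst stretch is chr11:90461424-90461575 and the Reln stretch is chr4:13628318-13628469. Capitals mark the full cAMP response element, TGACGTCA, a site bound by CREB-family factors.
Sst: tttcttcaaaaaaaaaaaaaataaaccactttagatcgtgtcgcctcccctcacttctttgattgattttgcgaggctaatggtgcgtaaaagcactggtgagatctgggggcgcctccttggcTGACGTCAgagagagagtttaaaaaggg
Reln: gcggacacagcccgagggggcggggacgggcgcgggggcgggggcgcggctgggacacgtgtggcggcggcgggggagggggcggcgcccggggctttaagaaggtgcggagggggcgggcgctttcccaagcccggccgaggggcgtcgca
The element was found once in Sst, beginning 2 bases after the annotated start, and was not among the letters of the Reln stretch. It reads the same on both strands and occurred in 1.83% of 33469 rat promoter windows of 300 bases around a gene's start. The stretches also differed in base composition: G and C made up 44.1% of the Sst bases and 81.6% of the Reln bases. Promoter windows were matched for 8 of the 10 markers, all but Calb1 and Cck. Among these 8, the shorter TGACG, which lies within the full element and was searched on both strands, occurred in Sst, Pvalb, Vip and Slc32a1, against 21.2% of all windows. The Pvalb window lay wholly inside the annotated gene and the Vip window almost wholly, so their TGACG matches lay within the gene. All of these are matches of letters, not measured sites.

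No marker passed the test in any of the 4 comparisons, at an adjusted p under 0.05 in limma with Benjamini-Hochberg adjustment over all genes. Between impaired and unimpaired rats, 0 of the 10 markers were called and 0% of all genes were (629 genes had an unadjusted p under 0.05), and the adjusted p of the markers lay between 0.651 and 0.996. At the level of single intervals, which are not adjusted for the number of genes, 3 of the 10 markers (Gad1, Reln and Calb1) had a 95% confidence interval of the difference without 0, against 6.93% of all genes. In the comparison of impaired with young rats 3.8% of genes were called and 16.6% had such an interval, which 1 marker, Cck, had. Of the genes compared between unimpaired and young rats, 0.76% were called and 9.84% had such an interval, again with 1 marker, Pvalb. For all aged against young rats the shares were 3.71% and 15.3%, and 2 markers, Pvalb and Cck, had an interval without 0. The median difference of the 10 markers between impaired and unimpaired rats was -0.03 on the log2 scale, beside -0.01 over all genes, and between aged and young rats it was 0.01, the same as over all genes. The comparisons with young rats share the same young arrays, and those of the aged groups share their aged arrays.

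Precision differed widely between markers. The standard deviation left within groups was 0.50 log2 units for Gad2, at percentile 98.9 of all genes. Sst (0.30), Reln and Npy (0.26 each) were at percentiles 93.0, 89.9 and 89.6. Pvalb, at 0.10, was at percentile 21.3, with Cck (0.11) and Gad1 (0.12) also in the lower part of the range. The median standard error of the markers' difference between aged groups was 0.116, above the 0.0736 over all genes, so that for most markers only larger differences could be told from 0. In RNA of a whole field, fewer cells of a type and less RNA per cell cannot be told apart.

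**Figure D1:**
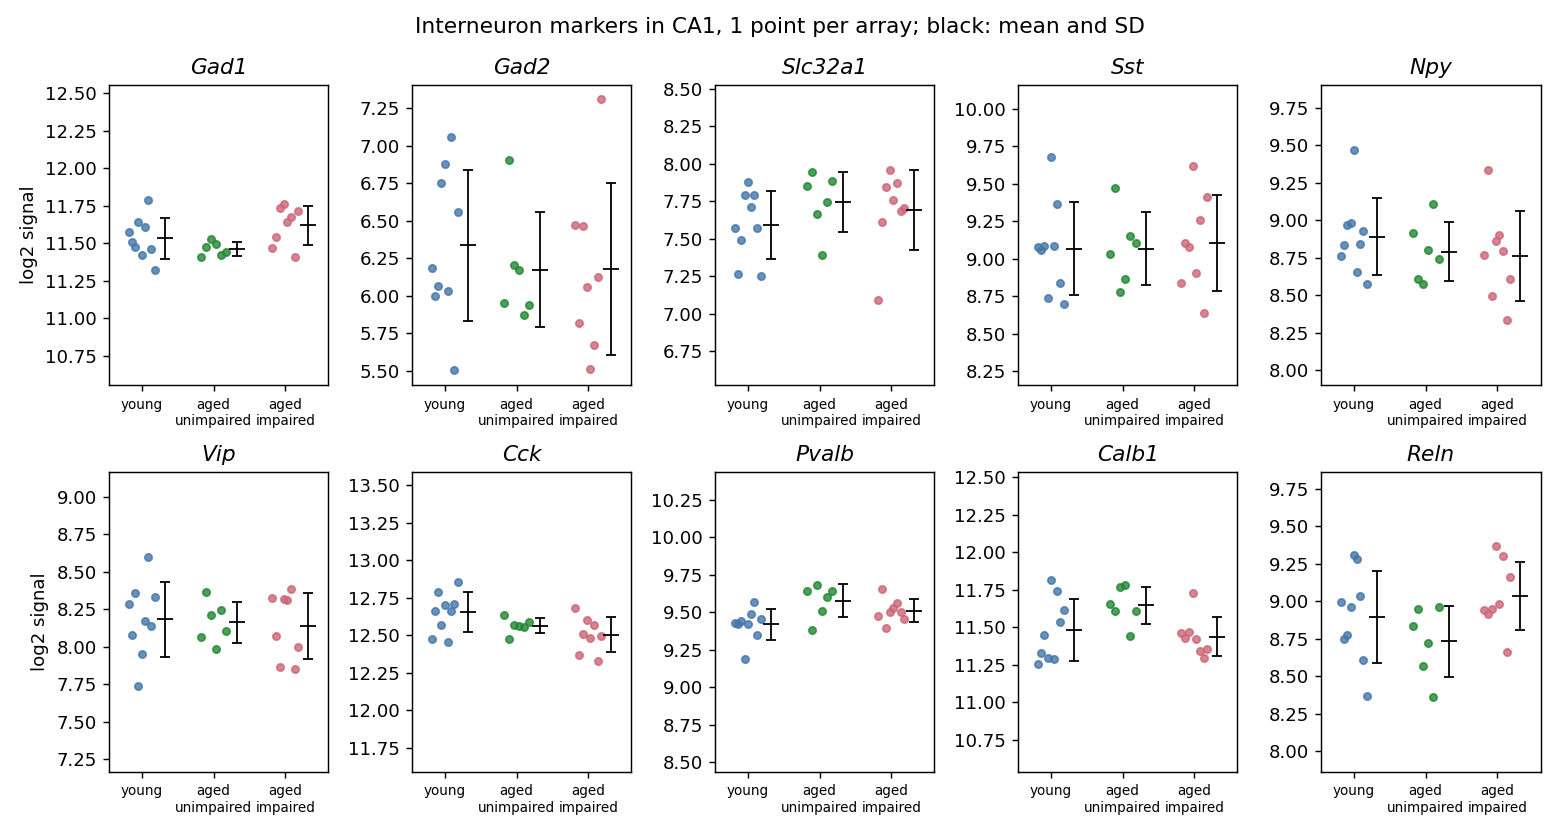
Log2 signal of each marker gene (vertical axis, a span of 2 log2 units in every panel) in young, aged unimpaired and aged impaired rats. Each point is 1 array, and the black bar gives the group mean and SD. The groups overlap for all 10 genes; the impaired points of Gad1 and Reln lie mostly in the upper part of the range and those of Calb1 in the lower part, with 1 impaired array of Calb1 at 11.73.

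The genes for GABA synthesis and packaging did not pass the test between the aged groups, and Gad1 had the most precise estimate of them. Gad1 log2 signals ranged from 11.32 to 11.79 (median 11.51) in the 9 young rats, from 11.41 to 11.53 (median 11.46) in the 6 unimpaired rats and from 11.41 to 11.76 (median 11.66) in the 8 impaired rats. The unimpaired arrays were close together, and 6 of the 8 impaired arrays were above every one of them, while all of them lay inside the young range. The difference of impaired minus unimpaired rats was 0.16 ± 0.06 (SE) on the log2 scale, a fold of 1.11, with a 95% interval of 0.02 to 0.29 and an adjusted p of 0.651 in limma. Without impaired replicate 4 the interval included 0. A second, dimmer Gad1 probe set gave 0.26, with an interval of -0.31 to 0.83. It correlated with the first at r = 0.47 over the 23 arrays once group means were removed. Against young rats the aged mean of Gad1 differed by 0.02 ± 0.05 (SE).

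Gad2, the other GABA-synthesising enzyme, varied most from rat to rat. It ranged from 5.50 to 7.06 (median 6.19) in young, from 5.87 to 6.91 (median 6.06) in unimpaired and from 5.51 to 7.31 (median 6.09) in impaired rats. The group medians lay within a small part of this spread. Impaired minus unimpaired was 0.01 ± 0.25 (SE), and the 95% interval ran from a fold of 0.698 to a fold of 1.44, so that changes of moderate size in either direction remain inside it. Aged minus young was -0.16 ± 0.20 (SE).

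Slc32a1, the vesicular transporter, ranged from 7.25 to 7.88 (median 7.57) in young, from 7.39 to 7.94 (median 7.80) in unimpaired and from 7.09 to 7.96 (median 7.73) in impaired rats. Of the 14 aged arrays, 12 were above the young median, and impaired replicate 1 was the lowest of all arrays. Aged minus young was 0.12 ± 0.10 (SE; adjusted p = 0.616 in limma), and impaired minus unimpaired was -0.05 ± 0.12 (SE), with an interval of -0.30 to 0.20.

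The peptide genes Sst, Npy and Vip differed between the aged groups by at most 0.04 log2 units, less than the SE of each. Sst, made by interneurons that contact distal dendrites, ranged from 8.70 to 9.68 (median 9.08) in young, from 8.78 to 9.47 (median 9.07) in unimpaired and from 8.64 to 9.62 (median 9.09) in impaired rats. The medians nearly coincided, while the animals of each group were spread over most of the range. Impaired minus unimpaired was 0.04 ± 0.15 (SE), with an interval from a fold of 0.827 to 1.28, and aged minus young was 0.02 ± 0.12 (SE), with an interval from 0.855 to 1.20. A fall of Sst to below 0.827 of its unimpaired level therefore lies outside the 95% interval, and smaller changes do not.

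Npy, found in several classes including neurogliaform and dendrite-contacting cells, ranged from 8.58 to 9.47 (median 8.84) in young, from 8.57 to 9.11 (median 8.77) in unimpaired and from 8.34 to 9.34 (median 8.78) in impaired rats. Of the 14 aged arrays, 9 were below the young median and 3 were below every young array. Impaired minus unimpaired was -0.03 ± 0.13 (SE; interval -0.30 to 0.25). Aged minus young was -0.12 ± 0.11 (SE; interval -0.33 to 0.10; adjusted p = 0.676 in limma).

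Vip, a marker of interneurons that mainly inhibit other interneurons, ranged from 7.74 to 8.59 (median 8.17) in young, from 7.98 to 8.37 (median 8.16) in unimpaired and from 7.85 to 8.38 (median 8.19) in impaired rats. Every aged array lay inside the young range. Impaired minus unimpaired was -0.02 ± 0.11 (SE), with an interval of -0.25 to 0.21, and aged minus young was -0.03 ± 0.09 (SE), with an interval of -0.21 to 0.15.

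Cck was lower in aged than in young rats at the level of its own interval, without passing the test over all genes. It ranged from 12.46 to 12.86 (median 12.66) in young, from 12.48 to 12.63 (median 12.57) in unimpaired and from 12.33 to 12.68 (median 12.50) in impaired rats. Of the 14 aged arrays, 13 were below the young median, and 4 of the 9 young arrays were above every aged one. The mean of the aged rats differed from the young mean by -0.12 ± 0.05 (SE), a fold of 0.918, with an interval of -0.22 to -0.02 and an adjusted p of 0.199 in limma. Without young replicate 9 that interval included 0. Each aged group had a lower mean than the young: impaired rats by -0.15 ± 0.06 (SE; adjusted p = 0.153 in limma) and unimpaired rats by -0.09 ± 0.06 (SE; adjusted p = 0.707 in limma). The aged groups differed by -0.06 ± 0.06 (SE; interval -0.19 to 0.07).

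Pvalb, carried by fast-spiking basket and axo-axonic cells, had an age difference of the opposite sign and was the most precisely measured marker. Its log2 signal ranged from 9.19 to 9.57 (median 9.43) in young, from 9.39 to 9.68 (median 9.62) in unimpaired and from 9.40 to 9.65 (median 9.502) in impaired rats. Of the 14 aged arrays, 12 were above the young median and 5 above every young array, 4 of these from unimpaired rats. Aged minus young was 0.12 ± 0.04 (SE), a fold of 1.09, with an interval of 0.03 to 0.21 and an adjusted p of 0.148 in limma. Unimpaired minus young was 0.16 ± 0.05 (SE; interval 0.05 to 0.27; adjusted p = 0.226 in limma), and impaired minus young was 0.09 ± 0.05 (SE; interval -0.01 to 0.19). The difference between the aged groups, -0.07 ± 0.05 (SE), had an interval of -0.18 to 0.05.

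Calb1, whose product buffers calcium, was lower in impaired than in unimpaired rats at the level of its own interval. It ranged from 11.26 to 11.82 (median 11.45) in young, from 11.44 to 11.78 (median 11.64) in unimpaired and from 11.30 to 11.73 (median 11.43) in impaired rats. Of the 8 impaired arrays, 5 were below every unimpaired array and 7 were below the unimpaired median; impaired replicate 4, at 11.73, was the exception. Impaired minus unimpaired was -0.21 ± 0.09 (SE), a fold of 0.866, with an interval of -0.39 to -0.03 and an adjusted p of 0.651 in limma. Without unimpaired replicate 3 or unimpaired replicate 4 the interval included 0. The impaired mean was near the young mean (-0.04 ± 0.08, SE), and the unimpaired mean was 0.16 ± 0.08 (SE) above the young mean, with an interval of -0.01 to 0.34.

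Reln had the largest difference of the 10 markers between the aged groups. It ranged from 8.37 to 9.31 (median 8.96) in young, from 8.36 to 8.96 (median 8.78) in unimpaired and from 8.66 to 9.37 (median 8.97) in impaired rats. Of the 8 impaired arrays, 4 were above every unimpaired array and 7 above the unimpaired median, and the young arrays covered nearly the range of both aged groups. Impaired minus unimpaired was 0.30 ± 0.13 (SE), a fold of 1.23, with an interval of 0.03 to 0.58 and an adjusted p of 0.681 in limma. The interval included 0 when unimpaired replicate 3, 4 or 5 or impaired replicate 4, 6 or 8 was left out; the differences then and in the other leave-outs lay between 0.23 and 0.36. The second Reln probe set gave 0.21 (interval -0.06 to 0.47) and correlated with the first at r = 0.54. Aged minus young was 0.01 ± 0.11 (SE), since the unimpaired mean was below the young mean by -0.16 ± 0.13 (SE) and the impaired mean above it by 0.14 ± 0.12 (SE).

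**Figure D2:**
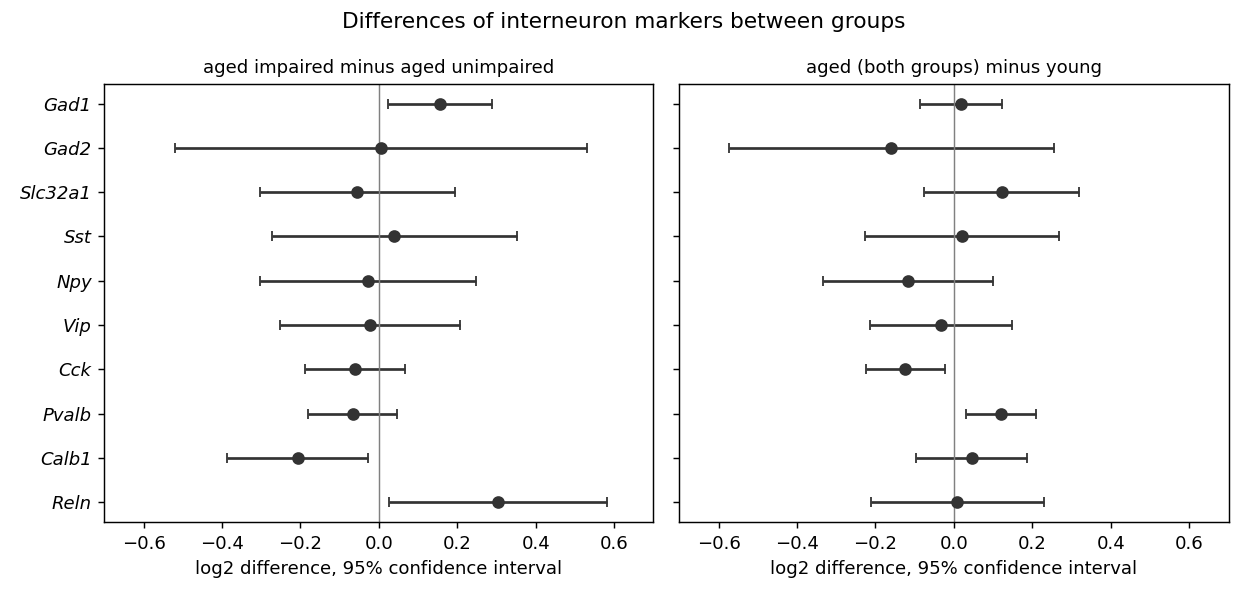
Log2 difference of each marker (horizontal axis) with its 95% confidence interval from the limma fit of 9 young, 6 unimpaired and 8 impaired arrays. In the left panel (impaired minus unimpaired) the intervals of Gad1, Calb1 and Reln exclude 0; in the right panel (all aged minus young) those of Cck and Pvalb do, and no marker passes adjustment over all genes.

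Between the aged groups, the medians of CA1 pyramidal markers and of CA3, CA2 and dentate markers lay apart from that of all genes. Of 16 listed CA1 pyramidal markers 12 were measured, Calb1 among them, and their median difference of impaired minus unimpaired rats was -0.17; their summed linear signal ran from 39032 to 44948 (median 41761) in unimpaired and from 33800 to 42299 (median 38728) in impaired rats. None of the 12 was called, and 6 had an interval without 0, against 6.93% of all genes. Among these 6 were Gpr161 at -0.32 ± 0.07 (SE) and Pou3f1 at -0.28 ± 0.09 (SE). Of 18 listed CA3 and CA2 markers 10 were measured, with a median difference of 0.16, and of 16 dentate granule cell markers 10, with a median of 0.15, while the median over all genes was -0.01. Of 18 listed markers of subiculum, cortex and thalamus 14 were measured, with a median of -0.03. None of these was called either. Summed CA3 and CA2 signal ran from 8482 to 10224 (median 8951) in unimpaired and from 8732 to 11763 (median 10127) in impaired rats. Summed dentate signal, to which Calb1 itself belongs, ran from 8242 to 10053 (median 9260) in unimpaired and from 8397 to 9812 (median 8772) in impaired rats, so its median was lower in impaired rats while the median of the single genes' differences was positive. The part of these markers in the Gad1, Calb1 and Reln differences was not tested. Of 10 Cajal-Retzius markers 3 were measured, Reln, Calb2 and Cxcr4, and none was called. Between the aged groups Calb2 differed by 0.07 ± 0.08 (SE), and Cxcr4 by -0.15 ± 0.05 (SE; interval -0.26 to -0.05), opposite in sign to Reln.

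Some markers of other cell types passed the test between aged and young rats. In aged against young rats, Aif1, C1qa, C1qc, Tyrobp, Ctss and Cd74 rose among 10 measured microglial markers, Gfap and S100b rose among 9 astrocyte markers, and Mal fell among 9 oligodendrocyte markers. Csf1r and the oligodendrocyte gene Opalin rose in impaired against young rats. The Mal call was lost in 18 of 23 leave-outs of 1 array and 3 of 10 other alternatives, and the Csf1r and Opalin calls each in 7 of 23 and 5 of 11. The matrix gene Dcn and Gpr161 were both on the list of CA1 pyramidal markers. Dcn fell in aged against young rats by 0.71 on the log2 scale (lost in 1 of 10 alternatives other than leave-outs). Between the aged groups Dcn differed by 0.29 ± 0.19 (SE, interval -0.11 to 0.69), opposite in sign to that list's median. Gpr161 fell in impaired against young rats by 0.22 (adjusted p = 0.0418 in limma). The Gpr161 call was lost in 14 of 23 leave-outs of 1 array and 7 of 11 other alternatives. Ccn2, a gene of the deep cortex, rose in both aged groups. Ccn2 and Etv1 were the only called genes of the 14 measured markers of subiculum, cortex and thalamus. The median of that list in aged against young rats was 0.009, beside 0.011 over all genes. Of all the lists, none had a called gene between impaired and unimpaired rats, where 0 of all 9075 genes were called. Their part in the Cck and Pvalb differences was not tested.

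Genes that act beside the markers were read from lists of interneuron genes. For GABA handling, 8 of 12 listed genes were measured, 3 of them markers described above. Slc38a1, a transporter of glutamine, the precursor of glutamate and GABA, rose in aged against young rats by 0.16 ± 0.04 (SE), from 9.998 ± 0.10 (SD, n = 9) to 10.16 ± 0.07 (SD, n = 14), with an adjusted p of 0.0224 in limma; 10 of 14 aged arrays were above every young one. The call held in all 23 leave-outs of 1 array and was lost in 3 of 10 other alternatives. No other gene of this list was called in any comparison. Aldh5a1, which breaks down a product of GABA, differed by 0.18 ± 0.06 (SE) at an adjusted p of 0.0929. The median of the list in aged against young rats was 0.07, beside 0.01 over all genes.

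Among transcription factors that specify interneurons, 11 of 18 were measured. Etv1 rose in aged against young rats by 0.21 ± 0.05 (SE; adjusted p = 0.00936 in limma), and also in the impaired (0.19 ± 0.05, SE; adjusted p = 0.0418) and the unimpaired group (0.24 ± 0.06, SE; adjusted p = 0.0461), calls of single groups that were lost in 14 and 17 of 23 leave-outs of 1 array. They were also lost in 5 and 7 of 11 other alternatives, and the call in all aged rats in 2 of 10. Etv1 is also a marker of deep cortical layers and was on the list of neighbouring cortex. Maf, a factor of Sst and Pvalb cells that is also expressed in microglia, rose in aged rats by 0.24 ± 0.06 (SE; adjusted p = 0.0335), and the call was lost in 8 of 23 leave-outs, with an adjusted p of up to 0.0786, and in 6 of 10 other alternatives. Microglial markers rose as well: 6 of 10 measured passed the test in aged against young rats, and their median difference was 0.35, and their part in the Maf difference was not tested. None of the 11 factors fell or was called between the aged groups. Prox1, which is also a dentate granule cell marker, had a difference of impaired minus unimpaired rats of 0.67 ± 0.25 (SE) at an adjusted p of 0.632.

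Of 29 other peptide and subtype genes, 14 were measured. Cxcl14, a chemokine of Cck-class and neurogliaform interneurons, rose in aged against young rats by 0.22 ± 0.05 (SE; adjusted p = 0.0128 in limma), from 10.89 ± 0.10 (SD, n = 9) to 11.10 ± 0.14 (SD, n = 14), and 11 of 14 aged arrays were above every young one. That call was lost in 1 of 10 alternatives other than leave-outs. In impaired against young rats it rose by 0.27 ± 0.06 (SE; adjusted p = 0.00641). Cnr1, the cannabinoid receptor of Cck basket cells, had an aged minus young difference of -0.11 ± 0.05 (SE, adjusted p = 0.224 in limma) and was not called. Penk, which encodes enkephalin, differed by 0.32 ± 0.14 (SE; adjusted p = 0.681) between impaired and unimpaired rats. The median of these 14 genes was 0.04 between the aged groups and -0.02 for aged against young rats.

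Fast-spiking cell genes were measured for 11 of 18, including Pvalb. Kcna1, a potassium channel subunit of axons, rose in aged against young rats by 0.34 ± 0.10 (SE; adjusted p = 0.0470 in limma) and in impaired against young rats by 0.43 ± 0.11 (SE; adjusted p = 0.0256). The first call was lost in 16 of 23 leave-outs of 1 array and the second in 3. Other alternatives ended the first in 3 of 10 cases and the second in 2 of 11. Kcnc2, a channel subunit that lets cells fire fast, had an aged minus young difference of 0.15 ± 0.04 (SE; adjusted p = 0.0746). Hapln1, a link protein of the perineuronal nets that surround Pvalb cells, had one of -0.31 ± 0.09 (SE; adjusted p = 0.0698). The genes beside Pvalb thus had differences of both signs, and the list's median for aged against young rats was 0.03. Of the 11 genes, 6 had an unadjusted interval without 0 in that comparison, Pvalb among them, against 15.3% of all genes. Among these 6 only Hapln1 had a negative difference. Between the aged groups none was called; Kcnab1 and Kcna2, subunits of axonal potassium channels, had differences of -0.18 ± 0.05 (SE; adjusted p = 0.562) and -0.23 ± 0.09 (SE; adjusted p = 0.651).

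Receptors of the marker peptides and of reelin were measured for 10 of 17 genes, and none was called in any comparison. Lrp8, a reelin receptor, had a difference of -0.20 ± 0.08 (SE) between impaired and unimpaired rats, with an interval of -0.36 to -0.05 and an adjusted p of 0.639 in limma, opposite in sign to that of Reln. Vldlr, the other reelin receptor, differed by -0.07 ± 0.07 (SE), and Dab1, the adaptor that both receptors use, by -0.04 ± 0.05 (SE). Of the somatostatin receptors, Sstr4 differed by -0.25 ± 0.15 (SE; interval -0.55 to 0.05) and Sstr2 by -0.15 ± 0.12 (SE; interval -0.39 to 0.09). Npy1r, a receptor of neuropeptide Y, had an aged minus young difference of -0.21 ± 0.12 (SE; interval -0.46 to 0.03). The list's median was -0.06 between the aged groups and -0.06 for aged against young rats.

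Markers were next compared with each other across animals, after the mean of its group had been subtracted from each array so that group differences could not contribute. Of the 45 pairs, 33 correlated positively, with Pearson's r from -0.32 to 0.71 and a median of 0.18. By Pearson's r, only Sst and Reln passed adjustment over the 45 pairs, with r = 0.71 over 23 arrays (permutation test, adjusted p = 0.00765). By Spearman's rho 2 pairs passed, Sst with Reln (rho = 0.69, adjusted p = 0.0106 by permutation) and Reln with Slc32a1. Reln was the 2nd of 9074 genes in likeness to Sst, and Sst was the 1st in likeness to Reln. Arrays with high Sst were mostly those with high Reln: young replicate 5 had 9.68 and 9.31, and impaired replicate 4 had 9.62 and 9.37. Young replicate 9 was low in both, at 8.70 and 8.37, and unimpaired replicate 5 departed from the pattern, with 9.15 for Sst and 8.36 for Reln. Without the 2 arrays farthest from the Sst median, young replicate 5 and impaired replicate 4, r was 0.60. It no longer passed adjustment (p = 0.00419 before and 0.0982 after adjustment, by permutation). Fewer arrays entered that test, and each of the 45 pairs left out the 2 arrays of its own first gene. The part of those arrays in the call therefore cannot be told apart from the smaller number of arrays.

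**Figure D3:**
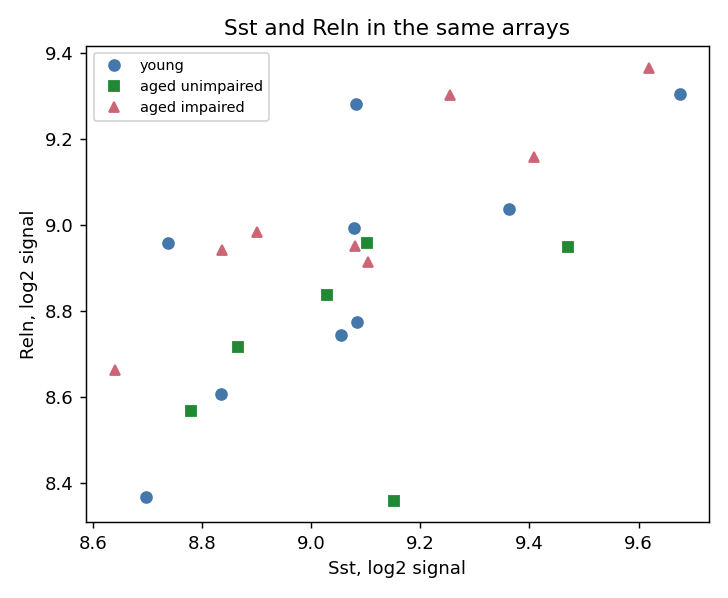
Log2 signal of Reln (vertical axis) against that of Sst (horizontal axis), 1 point per array, with the 9 young, 6 unimpaired and 8 impaired rats by colour and shape. Points rise from lower left to upper right, and 1 unimpaired array, at 9.15 for Sst and 8.36 for Reln, lies below the rest.

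Within groups the Sst and Reln correlation was 0.72 in the 9 young, 0.38 in the 6 unimpaired and 0.90 in the 8 impaired rats. Whether these values differ was not tested. With 1 array left out at a time it lay between 0.65 and 0.78, it was 0.70 with a measure of RNA quality removed, and the dimmer Reln probe set gave 0.59. The last value did not pass adjustment (adjusted p = 0.105 by permutation). That adjustment was over 150 relations of markers with lists, RNA quality and second probe sets. Slc32a1 followed both genes: r was 0.60 with Reln (adjusted p = 0.0592 by permutation; rho = 0.72, adjusted p = 0.00855) and 0.57 with Sst (adjusted p = 0.0760 by permutation). Gad1 correlated with Reln at 0.53 and with Slc32a1 at 0.50, neither past adjustment. The 4 genes Sst, Reln, Slc32a1 and Gad1 thus had positive correlations with one another in all 6 pairs, from 0.41 to 0.71. Gad2 correlated with Gad1 at 0.24, and Npy with Sst at 0.39. Pvalb and Vip correlated at 0.44, which fell to 0.22 without the 2 arrays farthest from the Pvalb median.

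**Figure D4:**
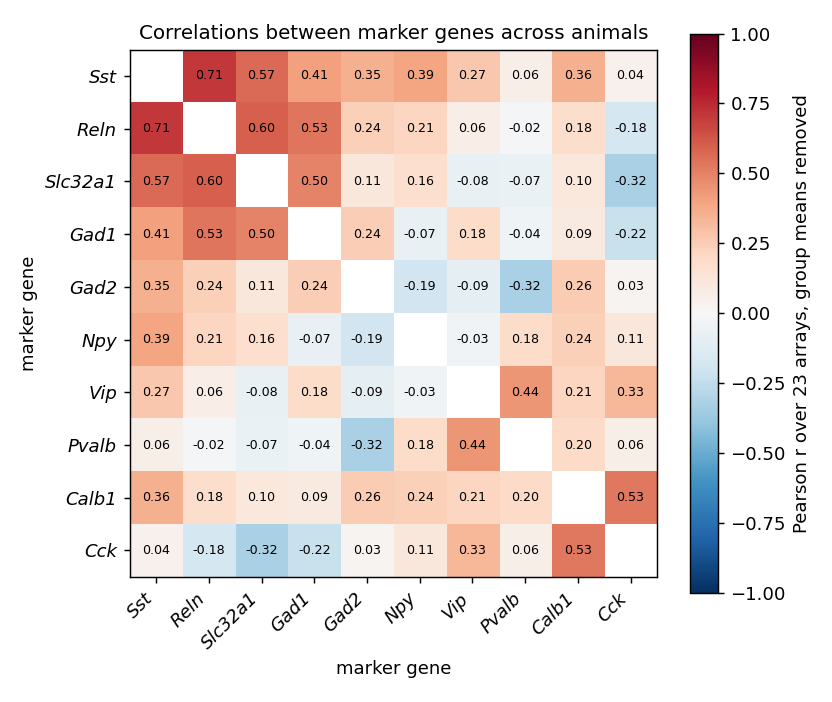
Pearson's r of each pair of marker genes over 23 arrays after group means were removed (colour and printed value). The block of Sst, Reln, Slc32a1 and Gad1 at the upper left holds the higher values, from 0.41 to 0.71, and Calb1 with Cck at the lower right reaches 0.53.

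Cck and Calb1, the markers that pyramidal cells share, correlated with each other at r = 0.53 (adjusted p = 0.0831 by permutation). Their rho was 0.57 (adjusted p = 0.0715 by permutation). Each was set against the mean of the CA1 pyramidal markers, with the 10 marker genes left out of that mean. Cck followed it with r = 0.70 over 23 arrays (adjusted p = 0.0405 by permutation). The adjustment was over 150 relations of markers with lists, RNA quality and second probe sets. The rho of Cck with this mean was 0.59 and was not tested, and r was 0.57 without the 2 arrays farthest from the Cck median. Calb1 did not pass this test, with r = 0.20 (adjusted p = 0.725 by permutation). Gad1 and Reln had negative values, -0.34 each, which did not pass either (adjusted p = 0.491 by permutation for both). The correlation of Slc32a1 with dentate markers, r = 0.60, had an adjusted p of 0.105 by permutation. Its part in the correlation of Slc32a1 with Sst and Reln was not tested.

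**Figure D5:**
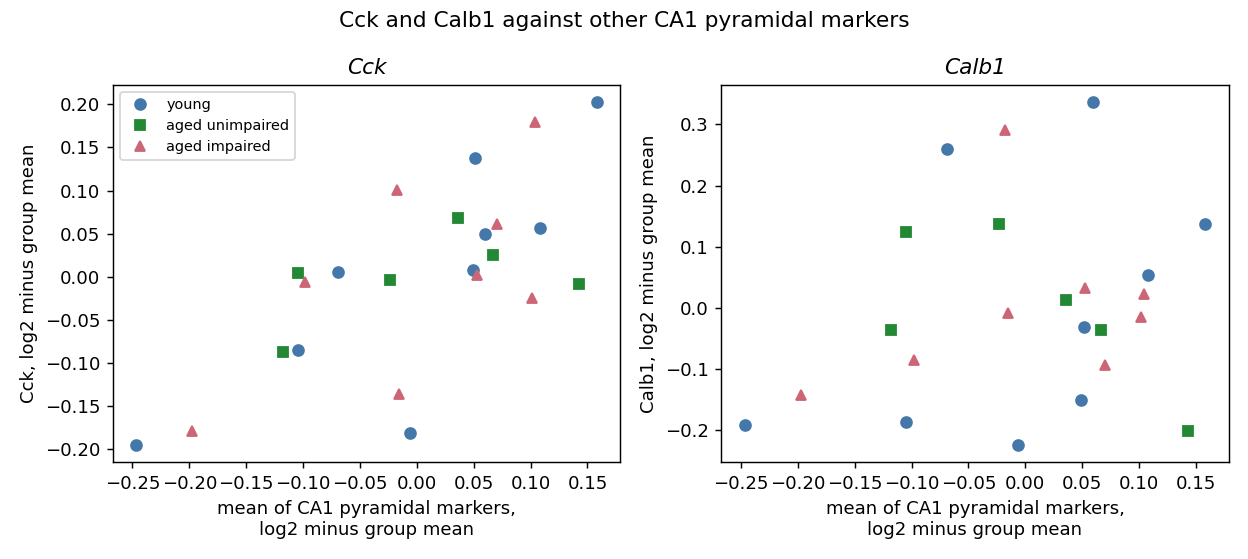
Cck (left) and Calb1 (right) against the mean of the other CA1 pyramidal markers, each as log2 signal minus its group mean, 1 point per array. Cck rises with the pyramidal mean (r = 0.70) and Calb1 shows a wide scatter (r = 0.20).

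The genes whose centred values were most like each marker, among 9074, are given as a description without a test. For Sst these were Adra2a (r = 0.73), Reln, Ndufa9, Diablo and Incenp, and for Npy they were Lrrc4 (r = 0.75), Ly6e, Smpd2, Ormdl2 and Cdo1. Reln was closest to Sst, Gps2 and Six5. For Gad1 they were Lgi3 (r = 0.75), Vdac1 and Gria4, and for Gad2 Kcnj3 (r = 0.74), Trpv5 and Dmxl1. Slc32a1 was closest to Sf3a2 (r = 0.72), Ppp2r3a and Fam163b, the last of these a gene of the dentate list. Cck had the highest value of any marker, 0.83 with Tpm1, followed by Ufd1 and Nell1. For Pvalb they were Tstd3 (r = 0.77), Il3ra and C1h9orf85, for Vip Dnttip1 (r = 0.75), Tcp1 and Slc25a12, and for Calb1 Mrpl50 (r = 0.71), Arfgef2 and Hip1. Apart from Sst and Reln, no marker was among the closest genes of another marker.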

How the data were processed

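RNA of 24 CA1 samples was measured on arrays, and 23 were analysed, since 1 column was blank. The table deposited by the authors holds log2 signals from GCRMA, according to the submitters' processing notes, a method that removes background, scales the arrays to each other and combines the probes of a probe set. Its version is not given in the sources used here. Array medians lay between 4.20 and 4.28. No batch or date was given, and the number of arrays limits the precision. Unimpaired replicate 6 is missing from the labels, while young replicate 9 stands among the unimpaired columns; it was kept as labelled. Nothing beyond the word biological says that samples came from separate rats. Each sample was counted as 1 rat, and differences were tested against the spread between samples.

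Of 31099 probe sets, 57 controls were left out, 20826 carried 1 gene symbol, 436 several and 9831 none. Each gene was represented by its brightest probe set among those above 4 log2 units in 6 or more arrays, and a probe set short of that was called dim. limma 3.58.1 in R 4.3.3 was fitted with 3 group means to all 9075 genes, and separately to all 31042 probe sets for the second probe sets of Gad1 and Reln. Each of 4 comparisons was adjusted by Benjamini-Hochberg over all genes; the aged mean weights the aged groups by their 6 and 8 arrays. Correlations used Python 3.11.15 and scipy 1.17.1, with 100000 permutations, two-sided. The fit and the permutation test were tested on simulated data. For the permutation test these were uncentred values without groups, so the effect of removing group means was not checked. Gene names come from the platform annotation, updated through RefSeq gene IDs.

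Every marker was named; from the other lists, each called gene and up to 2 genes per comparison of lowest p could be named; and the 3 closest genes of each marker (5 for Sst and Npy) were named. Calb2, Vldlr and Dab1 are named for their role, outside this rule. Markers and lists were chosen with earlier results of these data known. Alternatives changed the filter, the choice of probe set, the scaling, the weights, the moderation, an RNA quality covariate, the replicate block and single arrays. The shared replicate numbers were checked and did not pair the arrays.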

Additional observations from a re-analysis of the deposited data

Results flagged for a closer look

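In 4 of 36 groups of arrays, counted over 12 probe sets and 3 groups, 1 array stood apart from the rest by Dixon's test at the 95% level, which flags about 1 group in 20 by chance. Npy was highest in young replicate 5, at a log2 signal of 9.47, with the next young array at 8.98. Young replicate 5 was also the highest array for Sst and one of the 3 arrays with the lowest correlation with the others. Gad2 was highest in unimpaired replicate 2, at 6.91, with the next at 6.21. Calb1 was highest in impaired replicate 4, at 11.73, with the next at 11.47; the other 7 impaired arrays lay at 11.30 to 11.47. Slc32a1 was lowest in impaired replicate 1, at 7.09, with the next at 7.61.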

How the results depend on the processing

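The 10 markers kept their outcome under every alternative run: of 1350 recomputed differences 0 passed the test, and the lowest adjusted p in limma was 0.0678, for Cck in impaired against young rats. The sign of 79 differences turned, each with a main size of at most 0.16. The unadjusted intervals were less stable. The Gad1 interval between the aged groups included 0 with the mean of its probe sets, with an RNA quality covariate and without impaired replicate 4. That of Reln did so with the covariate, with the replicate block and in 6 of 23 leave-outs. That of Calb1 did so with the block, without the 3 arrays of lowest correlation and in 2 leave-outs. For aged against young rats the Pvalb interval included 0 when arrays were centred on their medians or quantile normalized, and the Cck interval with array weights, the block, without the 3 arrays of lowest correlation and in 1 leave-out. The causes were not tested. The Pvalb interval of unimpaired against young rats excluded 0 in all 34 alternatives.

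Counts over all genes moved by more than 1.5 times in these cases. Between impaired and unimpaired rats 1 gene was called with the replicate block and 1 with only the groups compared, against 0; leave-outs gave 0 throughout, and 629 genes were at an unadjusted p under 0.05. For impaired against young rats the block gave 165 genes against 345, and leave-outs gave 228 (without impaired replicate 6) to 439. For unimpaired against young rats the block gave 31 and array weights 150 against 69, and leave-outs gave 35 (without unimpaired replicate 4) to 86. For aged against young rats the block gave 159 against 337, and leave-outs 224 (without young replicate 2) to 407. The replicate numbers did not pair the arrays: the 20 same-numbered pairs correlated at -0.27 to 0.12, and 1 of 23 arrays was closest to its own number.

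Among the 45 pairs of markers, 2 passed by Spearman's rho and 0 without the 2 arrays farthest from the median of the first gene, against 1 by Pearson's r. The checks of Sst with Reln by RNA quality, second probe set, single arrays and group were chosen after seeing the data; within unimpaired rats r was 0.38 and within impaired rats 0.90, over 6 and 8 arrays. Gad2, with a log2 mean near 6.24 and the widest spread, was the marker for which the data limit the comparison most.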
